A study of Mus musculus with 416 samples.

Results

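Nicotinic acetylcholine receptors are cation channels opened by acetylcholine and by nicotine, and each is assembled from several subunits encoded by separate genes. The 9 genes described here encode the neuronal subunits: Chrna2, Chrna3, Chrna4, Chrna5, Chrna6, Chrna7, Chrnb2, Chrnb3 and Chrnb4. They were found by gene symbol among the 46517 gene IDs of the deposited table, and all 9 had a row. The table holds 416 RNA-seq libraries of striatum from drug-naïve J:DO mice, the Diversity Outbred stock in which each animal carries its own mixture of the genomes of several founder strains. By the labels, the animals fall into 6 groups of sex and outbreeding generation: 76 female and 74 male mice of generation 21, 60 female and 59 male mice of generation 22, and 72 female and 75 male mice of generation 23. All 6 groups share the strain, the tissue and the drug-naïve state, and the labels used here give no age and no treatment.

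Receptors containing the Chrna4 and Chrnb2 products are the most widespread type in brain and bind nicotine with high affinity, while the Chrna7 product can form a channel by itself. The Chrna5 and Chrnb3 products are accessory subunits, which join a receptor without forming the main binding site. In striatum, acetylcholine comes mainly from local cholinergic interneurons and reaches receptors on the terminals of midbrain dopamine neurons, whose cell bodies, with their Chrna6 and Chrnb3 RNA, lie outside the striatum. Chrna5, Chrna3 and Chrnb4 are neighbours in the genome and are known for their high level in the medial habenula, and Chrna5 also for deep cortical neurons.

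The libraries held between 20331813 and 77458299 estimated counts (median 43516366). In 29 libraries the level of Xist, the RNA of the inactive X chromosome, went against the labelled sex (limit 100 CPM). By a separate criterion, 29 libraries stood apart through a total under 0.5 of the median or a correlation with the other libraries more than 4 scaled median absolute deviations low, 14 of them from generation 21, 6 from generation 22 and 9 from generation 23. Striatal spiny neuron genes were high in most libraries, with a median of 1032 CPM (counts of a gene scaled to a common library total) for Ppp1r1b and 310 CPM for the dopamine receptor gene Drd1, but the lowest libraries had 14.0 and 1.53 CPM. No 2 libraries held identical counts. The most alike pair, a female and a male library of generation 21, differed by 9.88 times the variance expected from counting alone, and the library labelled male in it went against its label. The next 7 pairs differed by 12.7 to 16.1 times, and whether that pair shares an animal was not tested. Each library carries its own number in the labels, and p-values measure the spread between these libraries. In bulk tissue, fewer cells of a type and less RNA per cell cannot be told apart.

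Chrnb2 had the highest level of the 9 genes. Its CPM, scaled with TMM factors, ran from 33.8 to 151.9 with a median of 45.9. Chrna7 ranged from 3.40 to 23.7 CPM with a median of 14.0, and Chrna4 from 4.35 to 201.7 CPM with a median of 12.1. These 3 genes were counted in every library, at a median of 1990, 609 and 538 counts. Chrna2, a subunit gene known from certain inhibitory interneurons, lay at 1.47 CPM in the median library (lowest 0.496, highest 8.35) and was also counted in every library.

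The other 5 genes were at or below a median of 0.570 CPM. Chrna5 ranged from 0 to 6.43 CPM with that median. Chrnb4 had a median of 0.396 CPM (range 0 to 2.86), Chrna3 of 0.292 CPM (range 0 to 1.802) and Chrnb3 of 0.130 CPM (range 0 to 5.38). The number of libraries with a count of 0 was 1 for Chrna5, 2 for Chrna3, 4 for Chrnb4 and 58 for Chrnb3.

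Chrna6 did not pass the filter on low counts and so was left out of the tests over 22968 genes. It had 0 counts in 38.7% of the 416 libraries, a median of 2 counts and a highest value of 1.73 CPM, or 96 counts, in a single female library of generation 21. Fitted without the filter, its female minus male log2 difference was 0.41 ± 0.16 (SE, edgeR p 0.00976, adjusted p 0.187) and its sex by generation interaction had p 0.0229 (adjusted p 0.642). Its generation differences had adjusted p of 0.350 to 0.937, so edgeR called it in none of these. At the median depth, a count of 0 allows a level of up to 0.0689 CPM by counting error. Of 10 markers of midbrain dopamine neurons, Pitx3, En1 and Foxa1 had a median count of 0, and the dopamine transporter gene Slc6a3 a median of 0.0999 CPM. The other 6 passed the filter, among them Th at a median of 1.75 CPM (range 0.337 to 16.65). All 10 summed to a median of 40.9 CPM.

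**Figure D1:**
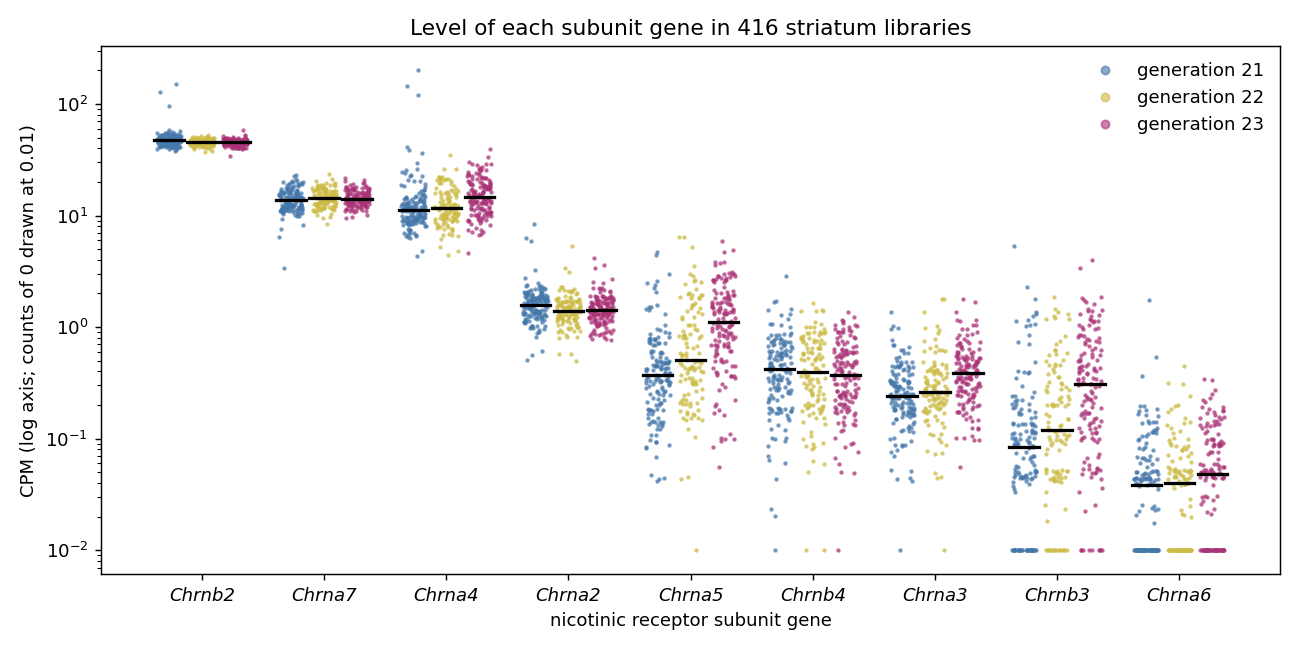
CPM on a log axis of the 9 subunit genes, 1 point per library, coloured by generation, with the median of each generation as a black bar. Chrnb2 is narrow around 45.9 CPM apart from 3 points of generation 21, and the 3 generations of Chrna5 and Chrnb3 are spread over a wide range.

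Levels of different genes were compared per kilobase of exon, taking the union of annotated exons. The order of medians was Chrnb2 (5.47 CPM per kb), Chrna7 (3.11), Chrna4 (2.42), Chrna2 (0.389), Chrna5 (0.182), Chrnb4 (0.106), Chrna3 (0.0554), Chrnb3 (0.0204) and Chrna6 (0.0147). Chrnb2 was above Chrna7 in all 416 libraries, and Chrna4 above Chrna2 in all 416. Other neighbours in the order overlapped: Chrna7 was above Chrna4 in 70.7% of libraries, Chrna2 above Chrna5 in 71.9%, Chrna5 above Chrnb4 in 69.5%, Chrnb4 above Chrna3 in 71.4%, Chrna3 above Chrnb3 in 77.2% and Chrnb3 above Chrna6 in 67.3%. Chrnb2, Chrna7 and Chrna4 made up a median of 45.4%, 25.6% and 20.2% of the summed level per kb of the 9 genes. Using the longest transcript in place of the exon union kept the same order.

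Of the 8380 exonic bases of Chrnb2, 1365 (16.3%) also lie in exons of Adar on the opposite strand, and Adar, an RNA-editing enzyme gene, had a median of 138.2 CPM by total count. The library kit was stranded by the labels, but how the counting used strand is not given in the sources used here, so reads of the 2 genes in the shared bases may not be told apart. Across the 416 libraries, r of the 2 genes was 0.45, and 0.41 without the 29 libraries that stood apart. The other 8 subunit genes share no exonic base with another annotated gene.

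The ratio of Chrnb2 to Chrna4 level per kb, the subunits that pair in the most common receptor, had a median of 2.24 and ranged from 0.451 to 6.92. It was above 1 in 96.4% of the libraries. By generation, the median was 2.51, 2.35 and 1.87 in generations 21, 22 and 23.

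The genes differed in how widely they varied between animals. Beyond counting noise, the coefficient of variation of CPM was 16.6% for Chrnb2, 18.9% for Chrna7 and 41.6% for Chrna2. It was 68.6% for Chrnb4, 69.6% for Chrna3 and 92.4% for Chrna4. These coefficients, and the SDs of log2 CPM and percentiles below, are for all 416 libraries. For Chrna4 and Chrnb2 much of the spread came from the 29 libraries that stood apart. The SD of CPM without them was 5.098 in place of 13.66 for Chrna4 and 3.3 in place of 7.792 for Chrnb2. For Chrna7 it was 2.602 in place of 2.766. Chrna5 and Chrnb3 varied most, with an SD of log2 CPM of 1.22 and 1.41 beside 0.16 for Chrnb2 and 0.62 for Chrna4. The share of the variance above counting noise ran from 88.3% (Chrna3) to 99.8% (Chrna4). Set against tested genes of like mean level (within 0.25 log2 CPM), the SD of log2 CPM of Chrna4, Chrnb3 and Chrna5 stood at the 96.6, 93.6 and 93.03 percentile. Chrnb2 stood at the 60.2 and Chrna2 at the 64.3 percentile.

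The shapes differed as well. Chrnb2 had the most skewed distribution, with a skewness of 4.97 on the log2 scale, above 99.9% of 1203 genes of like level. A mixture of 2 normal components put 1.21% of libraries in a high group of Chrnb2 and 1.83% in a high group of Chrna4. For Chrna7, 99.3% of libraries fell in the upper component and the few others in a lower one, and for Chrna2 a wider component held 10.4%. For Chrna3, Chrna5, Chrnb3 and Chrnb4, a single component was preferred by the Bayesian information criterion. These shapes are descriptions with no test.

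The high group of Chrnb2 and the low end of Chrna7 met in the same libraries, all of generation 21. Replicate 34 of the female group had 151.9 CPM of Chrnb2, 201.7 CPM of Chrna4 and 3.40 CPM of Chrna7. Replicate 35 of the male group had 128.7 CPM of Chrnb2, 144.5 CPM of Chrna4 and 6.41 CPM of Chrna7. Replicate 1 of the female group had 94.9 CPM of Chrnb2 and 119.7 CPM of Chrna4. These libraries held the 3 highest values of both Chrna4 and Chrnb2, and the first and second had the lowest Chrna7. The next highest values were 41.3 CPM for Chrna4 and 58.2 CPM for Chrnb2. Replicate 1 of the female group also had the highest Chrna6 (1.73 CPM) and Chrnb3 (5.38 CPM).

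The same 3 libraries had the 3 highest scores for thalamic relay neurons, where a score is the mean log2 CPM of the tested genes of a marker list. They scored 7.54, 7.07 and 6.66 against a median of 2.04, and 2.73, 7.83 and 6.45 for spiny projection neurons against a median of 8.86. Over all libraries the 10 thalamic markers summed to a median of 219.3 CPM. By generation the sum ran up to 5185 CPM in generation 21, 293.7 in generation 22 and 568.9 in generation 23, and none of the 10 had a median count of 0. Without the 29 libraries that stood apart, which include these 3, the highest level was 58.2 CPM for Chrnb2 and 35.1 CPM for Chrna4, and the lowest of Chrna7 was 9.23 CPM.

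**Figure D2:**
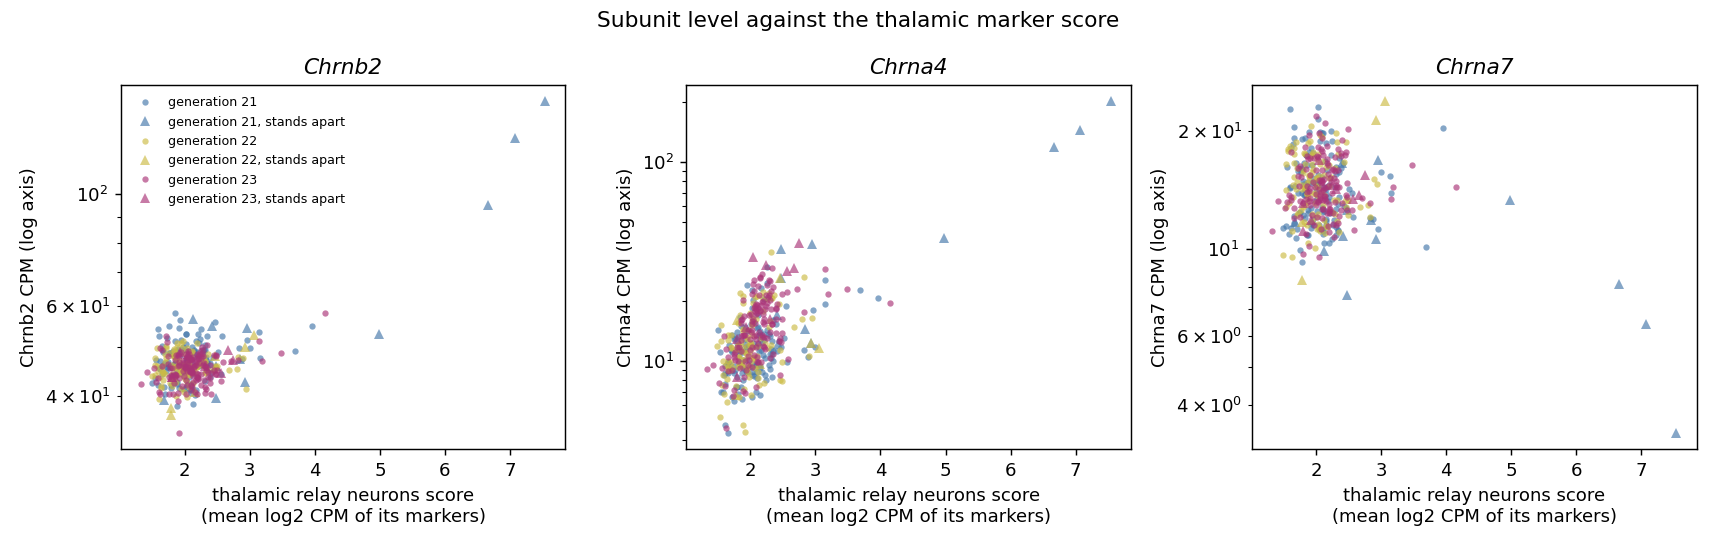
CPM (log axis) of Chrnb2, Chrna4 and Chrna7 against the thalamic relay neuron score of each of 416 libraries, coloured by generation; triangles are the 29 libraries that stood apart. The 3 libraries scoring 6.66 to 7.54 lie at the top for Chrnb2 and Chrna4 and low for Chrna7.

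Because those 3 libraries lie away from the rest, the relation with the thalamic score is given without the 29 libraries: r was 0.44 for Chrna4, 0.22 for Chrnb2 and -0.02 for Chrna7. With all 416 libraries r was 0.66, 0.66 and -0.29, so for Chrnb2 and Chrna7 the size of the relation rested on them. Chrnb2 and Chrna7 also had a negative r with the score of 8 ependymal cell markers. It was -0.48 for Chrnb2 (rho -0.365) and -0.24 for Chrna7 (rho -0.375). Without the 29 libraries it was -0.33 and -0.38. Adarb1, 1 of the 10 thalamic markers, was the gene nearest to Chrnb2 in pattern.

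Away from those libraries, the variation of 4 subunit genes ran with markers of cortical excitatory neurons. Over 416 libraries, with the means of the 6 groups removed, Pearson's r with the cortical excitatory score was 0.79 for Chrna5 (Spearman's rho 0.78), 0.77 for Chrnb3 (rho 0.76), 0.62 for Chrna4 (rho 0.71) and 0.53 for Chrna3 (rho 0.51). Each had a permutation p of 1e-05, the smallest that 100000 permutations can give, and an adjusted p of 3.28e-05 over the relations of 8 genes with 16 lists. Without the 2 libraries farthest from the median of the subunit gene, r was 0.78, 0.77, 0.71 and 0.53.

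The relation was present in each generation. For Chrna5, r was 0.68, 0.84 and 0.83 in generations 21, 22 and 23. For Chrnb3 it was 0.71, 0.79 and 0.81, for Chrna4 0.43, 0.72 and 0.83, and for Chrna3 0.34, 0.64 and 0.60. Without the 29 libraries that stood apart, r was 0.77, 0.78, 0.73 and 0.51 for Chrna5, Chrnb3, Chrna4 and Chrna3.

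The 10 cortical excitatory markers, which include Tbr1 and Slc17a7, were all tested, and none had a median count of 0. Their sum had a median of 545.5, 547.2 and 696.1 CPM in generations 21, 22 and 23, with ranges of 344.9 to 1343, 346.9 to 1507 and 394.4 to 1485 CPM. Slc17a7, the vesicular glutamate transporter of cortical neurons, ranged from 1.92 to 637 CPM and Tbr1, a transcription factor of deep cortical neurons, from 0.547 to 117.6 CPM. The same 4 subunit genes also correlated with the scores for cortical layer 6 (r 0.67, 0.62, 0.48 and 0.42 for Chrna5, Chrnb3, Chrna4 and Chrna3) and for GABA interneurons (r 0.69, 0.67, 0.57 and 0.50).

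**Figure D3:**
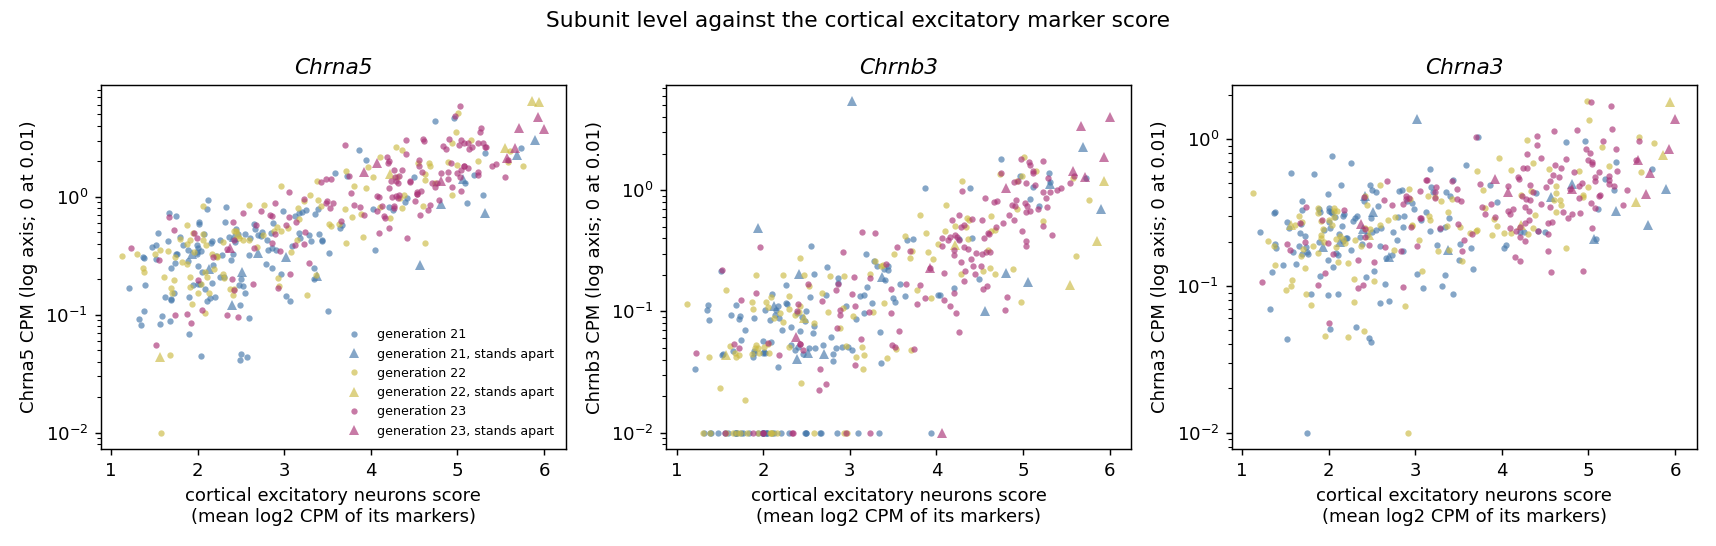
CPM (log axis; counts of 0 drawn at 0.01) of Chrna5, Chrnb3 and Chrna3 against the cortical excitatory neuron score of each of 416 libraries, coloured by generation; triangles are the 29 libraries that stood apart. The points rise together in all 3 panels, with r of 0.79, 0.77 and 0.53, and generation 23 lies mostly to the right.

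The scores of cholinergic interneurons and of spiny projection neurons ran the other way. With the cholinergic interneuron score, r was -0.51 for Chrna4, -0.46 for Chrna5, -0.45 for Chrnb3 and -0.30 for Chrna3, each with an adjusted permutation p of 3.28e-05. Its 10 markers, of which Gbx2 is also on the thalamic list, include Chat, the acetylcholine synthesis enzyme, at a median of 10.5 CPM. With the spiny projection neuron score, r was -0.64 for Chrna4, -0.43 for Chrnb3, -0.34 for Chrna5 and -0.27 for Chrna3. What part the amount of cortical tissue has in the levels of these genes was not tested.

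The scores named for regions known for these subunits left out some markers for low counts. Chrna5 and Chrnb3 had r of 0.53 and 0.50 with the medial habenula score. Of its 8 markers, Pou4f1 and Irx2 had medians of 0.0422 and 0.0334 CPM and were not tested. The other 6 were tested, among them Gpr151 at a median of 1.82 CPM and Tac2 at 0.359 CPM. All 8 habenula markers summed to 10.1 to 53.3 CPM. With the midbrain dopamine score, r of Chrna5 and Chrnb3 was 0.61 and 0.54. Slc6a3, Pitx3, En1 and Foxa1 were untested for low counts, and the 10 markers of that list summed to 25.1 to 145.7 CPM.

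Chrna2 and Chrnb4 followed another list. Their r with the choroid plexus score was 0.39 and 0.39, with an adjusted permutation p of 3.28e-05 each, but rho was 0.24 and 0.22. Without the 29 libraries r was 0.24 and 0.28. Chrna2 also had r of -0.23 with the oligodendrocyte score (rho -0.25) and 0.26 with the ependymal score (rho 0.15). These were -0.19 and 0.10 without the 29 libraries. The highest Chrnb4 (2.86 CPM) came from replicate 26 of the male generation 21 group, which had the highest choroid plexus score of all libraries (8.95 against a median of 1.47) and the second highest Chrna2 (6.27 CPM). The highest Chrna2 (8.35 CPM) came from replicate 29 of the female generation 21 group. That library ranked 10 by choroid plexus score, 4 by thalamic score and 3 by hippocampal score. The transthyretin gene Ttr, 1 of the 8 choroid plexus markers, ranged from 0.646 to 13850 CPM with a median of 8.14. All 8 markers summed to 115.4 to 22500 CPM with a median of 180. Their part in the levels of Chrna2 and Chrnb4 was not tested. Over all relations of 8 subunit genes with 16 scores, 73 passed an adjusted p of 0.05, 41 positive and 32 negative. The share that would pass over all genes was not counted.

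Of the 28 pairs of the 8 tested subunit genes, 14 were correlated at an adjusted permutation p under 0.05, 11 positively and 3 negatively. The lowest absolute r among the 14 was 0.109 (Chrna5 with Chrnb2). Over 16054 protein-coding genes, the median absolute r was 0.168 for Chrna4, 0.146 for Chrnb2, 0.135 for Chrnb3 and 0.122 for Chrna5. For the others it ran from 0.0502 (Chrnb4) to 0.0974 (Chrna3). The count of 14 is therefore not read as particular to these genes. The strongest pair was Chrna5 with Chrnb3 (r 0.65, rho 0.64), the 2 accessory subunits. It was followed by Chrna4 with Chrnb3 (r 0.60, rho 0.60), Chrna3 with Chrna5 (0.54, 0.51), Chrna4 with Chrna5 (0.54, 0.62), Chrna3 with Chrnb3 (0.48, 0.45) and Chrna3 with Chrna4 (0.40, 0.40). These 6 pairs join the 4 genes that ran with the cortical score, and each had an adjusted permutation p of 4e-05. In generations 21, 22 and 23 taken separately, r of Chrna5 with Chrnb3 was 0.57, 0.70 and 0.68. Without the 2 libraries farthest from the median of the first gene, r of these 6 pairs was 0.64, 0.64, 0.56, 0.60, 0.49 and 0.41.

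Chrna4 with Chrnb2, the pair of the common high-affinity receptor, had r of 0.47 but rho of 0.19. Its r was 0.26 without the 2 libraries farthest from the median of Chrna4 and 0.13 without the 29 that stood apart. In generations 21, 22 and 23 r was 0.65, 0.23 and 0.14. Chrna2 with Chrnb4 had r of 0.20 (rho 0.13, adjusted permutation p 0.000105). Its r was 0.11 without the 29 libraries that stood apart, and 0.29, 0.075 and 0.22 in generations 21, 22 and 23.

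The 3 negative pairs did not hold throughout. Chrna7 with Chrnb2 had r of -0.18 over all libraries but 0.14 without the 29 that stood apart, where it was positive with an adjusted permutation p of 0.0205. Chrna4 with Chrna7 had r of -0.19, and -0.00069 without them. Chrna2 with Chrnb2 had r of -0.18, and 0.02 without them.

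With the scores of 5 lists for other regions removed (cortical excitatory, thalamic, medial habenula, hippocampal, and septal and pallidal neurons), 4 pairs passed. They were Chrna3 with Chrna5 (r 0.25, adjusted permutation p 0.0028), Chrna2 with Chrnb4 (r 0.18, p 0.007), Chrna4 with Chrnb3 (r 0.17, p 0.0098) and Chrna4 with Chrnb2 (r 0.16, p 0.0098). Chrna5 with Chrnb3 was then at 0.09 (adjusted permutation p 0.149). The choroid plexus score, which Chrna2 and Chrnb4 both followed, was not among the 5 removed.

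**Figure D4:**
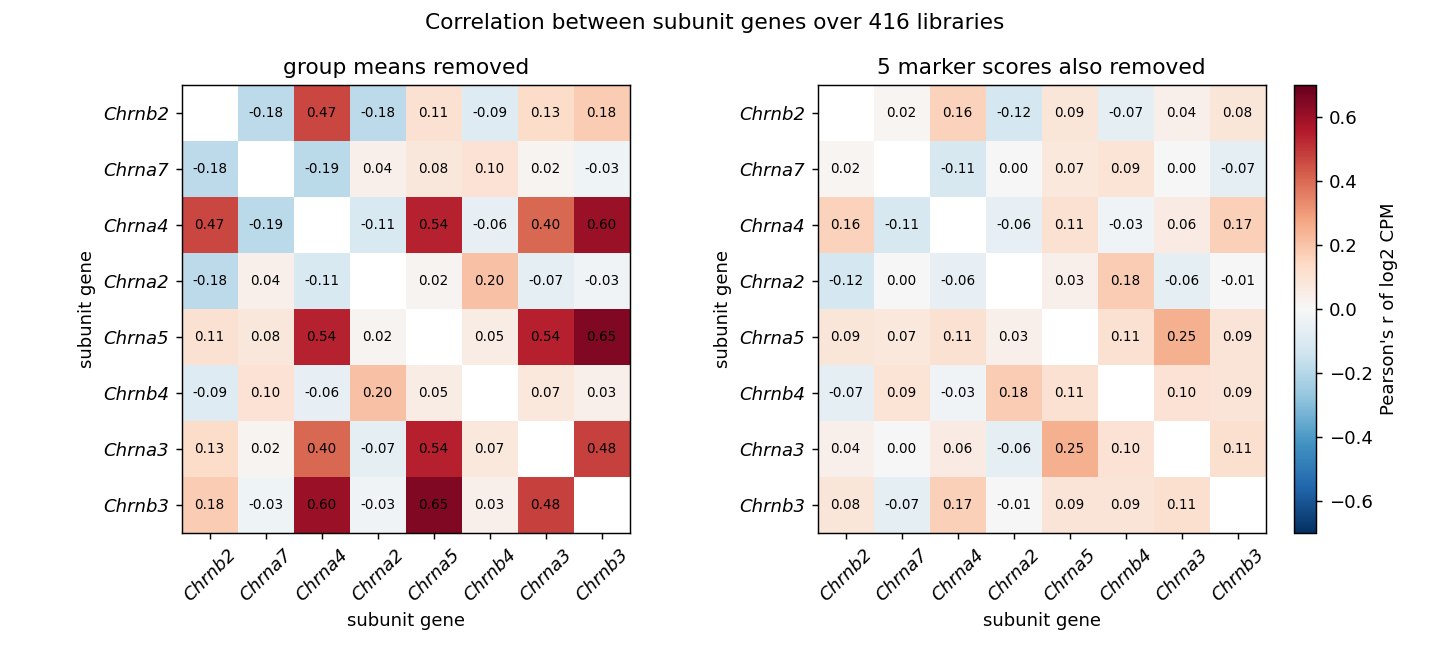
Pearson's r of log2 CPM between 8 subunit genes over 416 libraries, with the means of the 6 groups removed (left) and with 5 marker scores also removed (right). The block of Chrna3, Chrna4, Chrna5 and Chrnb3, at 0.40 to 0.65 on the left, fades to 0.06 to 0.25 on the right.

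Chrna3 and Chrna5 are also neighbours on chromosome 9, in opposite orientation and 2331 bases apart between their ends, and Chrnb4 lies 1591 bases beyond the start of Chrna3. Chrna5 and Chrna3 were at the 97.4 percentile of the absolute r of Chrna5 with 16054 genes, and at the 99.96 percentile once the marker scores were removed. Chrnb4, on the same strand as Chrna3, had r of 0.07 with Chrna3 and 0.05 with Chrna5, with adjusted permutation p of 0.221 and 0.404. The 250 bases before the starts of the 3 genes are shown because 2 of these neighbours moved together and the other did not. They come from RefSeq (GRCm38.p6), read 5′ to 3′ on the strand of each gene, with the GC box GGGCGG or its reverse complement CCGCCC in capitals.
Chrna5, first start, chr9:54980630-54980879, plus strand: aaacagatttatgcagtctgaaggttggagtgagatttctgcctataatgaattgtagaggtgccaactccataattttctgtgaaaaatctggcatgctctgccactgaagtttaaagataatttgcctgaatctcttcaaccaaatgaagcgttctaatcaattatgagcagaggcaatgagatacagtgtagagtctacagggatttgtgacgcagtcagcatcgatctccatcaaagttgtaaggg
Chrna5, second start, chr9:54981238-54981487, plus strand: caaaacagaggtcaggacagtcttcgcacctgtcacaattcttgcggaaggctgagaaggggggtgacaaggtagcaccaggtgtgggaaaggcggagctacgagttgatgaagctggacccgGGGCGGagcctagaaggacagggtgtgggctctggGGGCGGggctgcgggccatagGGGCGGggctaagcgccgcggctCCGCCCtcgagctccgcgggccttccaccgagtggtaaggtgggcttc
Chrna3, chr9:55026563-55026812, minus strand: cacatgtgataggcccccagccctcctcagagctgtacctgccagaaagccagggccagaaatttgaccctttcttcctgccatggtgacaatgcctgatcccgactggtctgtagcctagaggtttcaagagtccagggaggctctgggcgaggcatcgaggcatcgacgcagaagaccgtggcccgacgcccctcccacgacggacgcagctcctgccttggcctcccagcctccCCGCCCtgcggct
Chrnb4, chr9:55048545-55048794, minus strand: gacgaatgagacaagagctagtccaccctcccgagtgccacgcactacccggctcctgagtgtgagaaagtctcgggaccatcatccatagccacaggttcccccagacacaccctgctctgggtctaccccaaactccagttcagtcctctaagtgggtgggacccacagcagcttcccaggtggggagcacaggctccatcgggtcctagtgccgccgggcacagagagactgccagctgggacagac

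The second start of Chrna5 holds 4 GC boxes, its first start 0, the Chrna3 stretch 1 and the Chrnb4 stretch 0. Over the 32851 promoter stretches of 250 bases in the same table, 32.7% held at least 1 on either strand. TATAAA, searched on both strands and found in 12.4% of all stretches, was in none of the 4. The GC content was 40% and 65.2% at the 2 starts of Chrna5, 63.2% for Chrna3 and 61.2% for Chrnb4, against a median of 52.4%. A match describes these letters, not a bound site.

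The promoters of Chrna4 and Chrnb2, which had their 3 highest values in the same libraries, are shown in the same way.
Chrna4, chr2:181039178-181039427, minus strand: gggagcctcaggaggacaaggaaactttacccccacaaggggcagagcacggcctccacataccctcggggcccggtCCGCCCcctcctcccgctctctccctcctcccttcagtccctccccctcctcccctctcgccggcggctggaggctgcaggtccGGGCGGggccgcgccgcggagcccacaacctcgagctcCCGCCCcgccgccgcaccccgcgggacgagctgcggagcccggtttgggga
Chrnb2, chr3:89764633-89764882, minus strand: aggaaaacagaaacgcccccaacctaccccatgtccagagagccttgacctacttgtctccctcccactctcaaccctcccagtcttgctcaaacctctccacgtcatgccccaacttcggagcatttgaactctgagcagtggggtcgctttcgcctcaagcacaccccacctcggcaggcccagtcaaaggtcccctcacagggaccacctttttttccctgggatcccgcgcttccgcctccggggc

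Chrna4 had 3 GC boxes and a GC content of 74.4%, above 95.4% of all stretches. Chrnb2 had 0 and a GC content of 59.6%. RefSeq gave a promoter for 6 of the 9 genes.

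The named protein-coding genes with the most similar pattern to each subunit gene were found by r over the same 416 libraries among genes whose mean log2 CPM was 0 or higher. For Chrna5 they included Vxn (r 0.80), Tbr1 (0.80), Tmem178 (0.79) and Trhde (0.78), of which Tbr1 belongs to the cortical list. For Chrnb3 they were Gfra2 (0.80), Cbln2 (0.77), Vxn (0.77), Tmem178 (0.77) and Ncald (0.77). For Chrna3 they were Trhde (0.57), Ipcef1 (0.56), Serpini1 (0.55), Kcnj6 (0.55) and Pde1a (0.55). Vxn and Tmem178 were thus among the 5 nearest to both accessory subunit genes.

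For Chrna4 the nearest were Adgra1 (0.83), Tmem151b (0.82), Adra1b (0.81), Cacna1g (0.81) and Syt13 (0.81); Cacna1g encodes a T-type calcium channel subunit and Adra1b an adrenergic receptor. For Chrnb2 they included Adarb1 (0.77), Kcnc1 (0.76), Diras1 (0.72) and Sv2a (0.71), and without the 29 libraries that stood apart these r were 0.37, 0.44, 0.41 and 0.49. For Chrna7 they were Nrgn (0.56), Pld3 (0.54), Cnr1 (0.54), Plcb1 (0.53) and Scn2a (0.52), which fell to between 0.28 and 0.45 without those libraries. Cnr1 encodes the cannabinoid receptor, and Nrgn, a calmodulin-binding neuronal protein gene, is also on the cortical list.

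The genes nearest to Chrna2 included Ephx2 (0.49), Notch2 (0.43), Large2 (0.43) and Wdr86 (0.43). Chrnb4 was nearest to Cgnl1 (0.43), Cldn1 (0.42), Igf2 (0.41), F5 (0.41) and Nid2 (0.41), among which Cldn1 encodes a tight junction protein and Igf2 a growth factor made in choroid plexus and meninges. At the other end, Tle1 was among the 3 lowest genes for Chrna3 (-0.42), Chrna4 (-0.70), Chrna5 (-0.56) and Chrnb3 (-0.64). Fam110b was among the lowest for Chrna3 (-0.46) and Chrna5 (-0.56), and Abat, an enzyme of GABA breakdown, for Chrna3 (-0.42). Chrna4 was lowest with Grm5 (-0.72) and Cdh8 (-0.72), Chrna5 with Prkch (-0.56), and Chrnb3 with Doc2b (-0.61) and Ryr3 (-0.61). For Chrna2 the lowest were Epb41l3 (-0.35), Omg (-0.32) and Cacng2 (-0.32), for Chrna7 Trim67 (-0.47), Amotl1 (-0.45) and Triobp (-0.45), for Chrnb2 Kif27 (-0.67), Rfx3 (-0.65) and Ap1s2 (-0.64), and for Chrnb4 C1qtnf5 (-0.36), Fbxo22 (-0.33) and Ube2q2 (-0.32).

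Between labelled sexes the subunit genes differed little. The median of Chrna4 was 12.6 CPM in female and 11.7 CPM in male libraries, and that of Chrnb3 was 0.137 and 0.115 CPM, with ranges that overlapped almost entirely. The log2 difference, female minus male, was 0.17 ± 0.07 (SE) for Chrna4 (edgeR adjusted p 0.192) and 0.31 ± 0.16 for Chrnb3 (adjusted p 0.302). For the other 6 genes it lay between -0.02 and 0.06. edgeR's quasi-likelihood test called 0 of 8 genes, 1 of 8 had an unadjusted p under 0.05, and DESeq2 and limma voom also called 0. Among all 22968 tested genes, 2.86% were called (1.55% higher and 1.3% lower in female libraries). Without the 29 libraries that went against their label, edgeR again called 0 of 8.

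The sex by generation interaction was called for 0 of 8 by edgeR, DESeq2 and limma voom, with 1 of 8 (Chrnb3) at an unadjusted p under 0.05 by edgeR. Its adjusted p was 0.290, and 0.322% of tested genes were called.

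Between generations several subunit genes differed, with the clearest change in Chrna5. Its median was 0.369 CPM in generation 21 (range 0.0417 to 4.67), 0.509 CPM in generation 22 (0 to 6.43) and 1.11 CPM in generation 23 (0.0552 to 5.87). The generations overlapped across nearly the whole range, and 15, 34 and 80 libraries of the 3 generations exceeded 1 CPM. In the 6 groups the median ran from 0.362 CPM (female, generation 21) to 1.31 CPM (female, generation 23). The log2 difference was 0.72 ± 0.16 (SE) for generation 22 minus 21 and 1.25 ± 0.14 for generation 23 minus 21, a 2.37-fold rise (edgeR adjusted p 3.79e-05 and 1.38e-15). Generation 23 exceeded generation 22 by 0.53 ± 0.14 (adjusted p 0.00381).

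Chrnb3 had medians of 0.0849, 0.119 and 0.308 CPM in generations 21, 22 and 23, and 34, 15 and 9 libraries at a count of 0. It rose by 1.03 ± 0.19 (log2, SE) from generation 21 to 23 and by 0.90 ± 0.20 from 22 to 23 (edgeR adjusted p 3.01e-07 and 0.000352). Chrna3, with medians of 0.242, 0.260 and 0.388 CPM, rose by 0.61 ± 0.10 from generation 21 to 23 and by 0.35 ± 0.11 from 22 to 23 (edgeR adjusted p 4.46e-08 and 0.0118). From 21 to 22 its difference was 0.26 ± 0.11 at the edge of the threshold (edgeR adjusted p 0.0492). That call was lost without the 29 libraries that stood apart (adjusted p 0.0778), with DESeq2 (0.0667), with limma voom (0.198), with the 5 marker scores as covariates (0.319) and in female libraries alone, where the value was 0.03 (0.911).

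Chrna4 had medians of 11.3, 11.7 and 14.7 CPM and means of 15.4 ± 21.4, 12.8 ± 5.02 and 15.8 ± 6.08 CPM (SD over the libraries of each generation). It fell by 0.26 ± 0.09 (log2, SE) from generation 21 to 22 and rose by 0.31 ± 0.09 from 22 to 23 (edgeR adjusted p 0.0115 and 0.00945). Both the 3 highest libraries and the large SD belong to generation 21. Without the 29 libraries that stood apart, the generation 22 minus 21 value was 0.10 (adjusted p 0.186), with the opposite sign. The generation 23 minus 21 value was 0.05 (adjusted p 0.656) with all libraries and 0.37 (adjusted p 1.91e-08) without them.

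2 subunit genes were lower in the later generations. Chrna2, with medians of 1.59, 1.40 and 1.43 CPM, fell by 0.20 ± 0.06 (log2, SE) from generation 21 to 22 and by 0.18 ± 0.06 to generation 23 (edgeR adjusted p 0.00341 and 0.00533); without the 29 libraries the second was -0.10 (adjusted p 0.055). Chrnb2, with medians of 47.1, 45.6 and 45.4 CPM, fell by 0.10 ± 0.02 in both (adjusted p 7.33e-05 and 3.16e-06), and the values without the 29 libraries were -0.04 and -0.06 (adjusted p 0.00315 and 3.22e-05). Chrna7 (medians 13.8, 14.3 and 14.1 CPM) and Chrnb4 (0.417, 0.392 and 0.373 CPM) passed in no comparison, with log2 differences between -0.18 and 0.06.

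Across the 3 generations together, edgeR called 6 of 8 subunit genes, beside 63.8% of all genes. By pairs, 5 of 8 were called for generation 22 minus 21 (2 higher, 3 lower), where 46.6% of the 22968 tested genes were called (22.1% higher, 24.5% lower). The same number, 5 of 8, were called for generation 23 minus 21 (3 higher, 2 lower), beside 58.3% of all genes (25.8% higher, 32.6% lower). These shares are near the background. Between generations 22 and 23, 4 of 8 were called, all higher, beside 18.2% of all genes (8.53% higher, 9.63% lower). Taken without sign, the log2 differences of the 8 had a median of 0.17, 0.18 and 0.22 in the 3 comparisons, beside 0.08, 0.09 and 0.04 over all genes. With the 5 marker scores as covariates, these medians were 0.072, 0.078 and 0.026, beside 0.0745, 0.090 and 0.034 over all genes. The 3 comparisons share libraries with each other.

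The cortical markers moved with generation as well: the median cortical excitatory score was 2.49, 2.94 and 4.26 in generations 21, 22 and 23. With the 5 marker scores as covariates, the generation 23 minus 21 difference was 0.25 for Chrna5 (edgeR adjusted p 0.0216), 0.10 for Chrna3 (0.371), -0.02 for Chrnb3 (0.921) and -0.02 for Chrna4 (0.737). Chrna2 was then at -0.20 (edgeR adjusted p 0.00357) and Chrnb2 at -0.05 (0.00178). This was close to the value without the covariates for Chrna2 and smaller for Chrnb2. The choroid plexus score, which Chrna2 followed, was not among the 5. Its medians were 1.74, 1.46 and 1.31 in generations 21, 22 and 23, and its part in the Chrna2 difference was not tested. With the 5 marker scores as covariates, edgeR called 0 of 8 genes for generation 23 minus 22. The share of all genes called with these covariates was not counted. Of the 8, 0 had an unadjusted p under 0.05, and the lowest adjusted p was 0.419. The labels give no batch other than generation, so anything that the libraries of a generation share cannot be told apart from it.

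**Figure D5:**
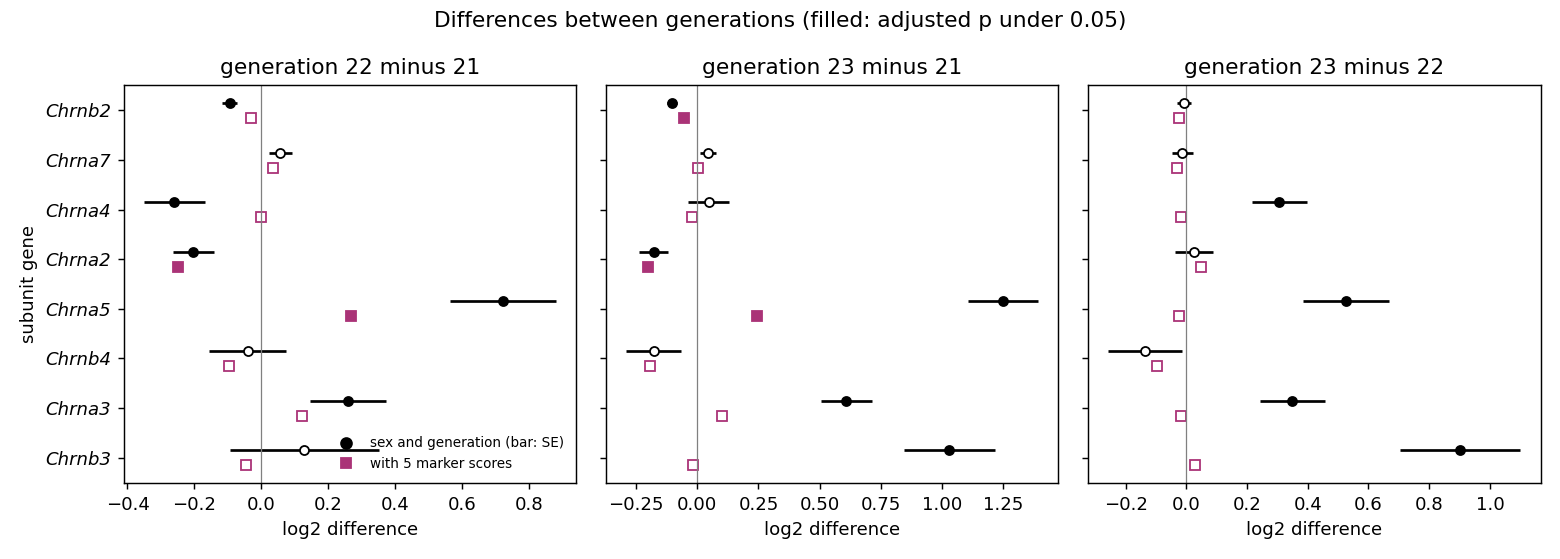
Log2 difference of 8 subunit genes for 3 pairs of generations: black circles from the fit with sex and generation, with SE as bars, and purple squares with 5 marker scores added. Filled symbols have an edgeR adjusted p under 0.05. The values of Chrna5, Chrna3 and Chrnb3 in the middle panel, at 1.25, 0.61 and 1.03, move to 0.25, 0.10 and -0.02.

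The other 7 nicotinic subunit genes are known from muscle and the inner ear. Chrnb1 had a median of 2.48 CPM, above the 1.47 CPM of Chrna2, and Chrna1 had 1.24 CPM. The medians of Chrne, Chrna10 and Chrng were 0.37, 0.143 and 0.102 CPM, and those of Chrna9 and Chrnd were 0. Chrna9, Chrnd and Chrng did not pass the filter, while Chrna1, Chrnb1, Chrna10 and Chrne did. Between generations 21 and 23, where 58.3% of all genes were called, 3 of 4 were: Chrna1 rose by 0.17 ± 0.04 (log2, SE), from a median of 1.17 to 1.32 CPM, while Chrna10 fell by 0.39 ± 0.10 and Chrne by 0.16 ± 0.05 (edgeR adjusted p 5.88e-06, 0.000581 and 0.00541). For generation 22 minus 21, Chrna1 (0.09) and Chrna10 (-0.39) were called, and 0 of 4 were called for generation 23 minus 22 or for sex by edgeR, with 2 and 0 at an unadjusted p under 0.05. The median log2 difference of the 4 for generation 23 minus 21 was -0.08, beside -0.02 over all genes.

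Of 15 genes for receptor assembly and modulation, all tested, 11 were called for generation 23 minus 21, 7 higher and 4 lower, beside 58.3% of all genes (25.8% higher, 32.6% lower). Lypd6b, a membrane-anchored modulator of nicotinic receptors of the Ly6 family, rose by 0.82 ± 0.10 (log2, SE), from a median of 1.13 to 2.11 CPM (edgeR adjusted p 4.26e-15). Vsnl1, a calcium sensor, rose by 0.62 ± 0.10 and Lypd6 by 0.26 ± 0.03 (adjusted p 6.16e-09 and 4.38e-12). Ly6e (0.17), Nptx2 (0.11), Ywhah (0.09) and Ric3, a chaperone of receptor assembly (0.06), were also higher. Lypd1, a further Ly6 family modulator, fell by 0.33 ± 0.06, and Ly6h (-0.13), Tmem35a, a chaperone of the Chrna7 product (-0.06), and Unc50 (-0.05) were lower. The median log2 difference of the 15 was 0.07 beside -0.02 over all genes.

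With the 5 marker scores as covariates, 7 of the 15 were called for generation 23 minus 21, 1 higher and 6 lower, and Lypd6b, Lypd6, Vsnl1 and Nptx2 were not (edgeR adjusted p 0.116, 0.1495, 0.787 and 0.101). The share of all genes called with these covariates was not counted. Taken without sign, the median log2 difference was then 0.064 for the 15, beside 0.090 over all genes. Ly6e and Ywhah turned to the opposite direction, at -0.15 and -0.06 (edgeR adjusted p 0.0212 and 0.00596), and Ric3 was the 1 gene called higher (0.05). In generation 22 minus 21, 5 of 15 were called (1 higher, 4 lower; 46.6% of all genes) and in generation 23 minus 22 again 5 of 15 (18.2% of all genes), all higher: Lypd6b (0.60), Vsnl1 (0.50), Nptx2 (0.17), Lypd6 (0.13) and Ywhah (0.13). For sex, 1 of 15 was called: Lynx1, whose product restrains nicotinic receptors, was 0.08 ± 0.02 higher (log2, SE) in female libraries (edgeR adjusted p 0.0408), with medians of 190.1 and 175.9 CPM. It was not called with the 5 marker scores as covariates (adjusted p 0.0592).

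Among the 7 genes of acetylcholine synthesis, storage and breakdown, 4 were called for generation 23 minus 21, a share near the 58.3% of all genes. The cholinesterase gene Bche rose by 0.15 ± 0.05 (log2, SE), while Ache, the main acetylcholine-degrading enzyme, fell by 0.11 ± 0.02, Prima1, its membrane anchor, by 0.15 ± 0.04 and the vesicular transporter gene Slc18a3 by 0.15 ± 0.05 (edgeR adjusted p 0.00253, 3.02e-07, 7.5e-05 and 0.00825). With the 5 marker scores as covariates, 3 of 7 were called, all higher: Slc5a7, the choline transporter gene (0.27), Chat (0.13) and Bche (0.15), with edgeR adjusted p of 8.95e-11, 0.000988 and 0.00595. The share of all genes called in that fit was not counted. Taken without sign, its median log2 difference was 0.132 for the 7, beside 0.090 over all genes. Ache (-0.03), Prima1 (-0.06) and Slc18a3 (0.04, the opposite sign) were then not called (edgeR adjusted p 0.0726, 0.151 and 0.514). For generation 22 minus 21, Slc5a7 (0.13) and Bche (0.12) were higher and Ache (-0.09) lower, and for generation 23 minus 22 edgeR called 0 of 7, with 1 at an unadjusted p under 0.05. For sex, Bche was 0.14 ± 0.04 lower in female libraries (adjusted p 0.0155), with medians of 6.49 and 7.07 CPM. The median log2 difference of the 7 for generation 23 minus 21 was -0.03, beside -0.02 over all genes.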

How the data were processed

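RNA was measured in 416 striatum libraries made with a stranded, ribosomal RNA-depleting kit and sequenced in pairs, per the labels. The authors deposited estimated counts per Ensembl gene, and the aligner, counter, genome build and annotation are not given in the sources used here. Of 46517 gene IDs, 46005 (98.9%) were matched to symbols of GENCODE mouse gene names. Of the deposited values 23.8% were not whole, so counts were rounded, which moved 0.005% of the total. Totals of 20331813 to 77458299 leave counting error small for Chrnb2 and large for Chrna6.

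Genes were filtered with filterByExpr (minimum count 10 over the 6 groups), leaving 22968. Tests used edgeR 4.0.16 (quasi-likelihood, TMM factors, sex and generation as terms, Benjamini-Hochberg adjustment, threshold 0.05) in R 4.3.3, with limma 3.58.1 voom and DESeq2 1.42.0 as alternatives. Log2 CPM used a prior count of 2. Correlations used 100000 two-sided permutations within the 6 groups. Scripts were tested on simulated data.

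Named genes were the 9 subunit genes, for each the 5 named protein-coding genes of highest and the 3 of lowest r, and those of 3 pathway lists past a test. Members and lists were chosen with earlier results of these data known. Some genes that this rule names are not reported here.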

Additional observations from a re-analysis of the deposited data

How the results depend on the processing

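No paired analysis was possible because the labels number the libraries without pairing them across groups. Of the alternatives to the log2 differences of single subunit genes, 22 changed sign, 24 kept the sign but lost the call, 3 kept the sign and gained the call, and the rest kept both. Some of the 22 lost the call as well, such as Chrna4 for generation 22 minus 21 without the 29 libraries that stood apart. Of those to the correlations, 46 lost the call, 11 moved and 15 changed sign, and the rest kept both. The count of subunit genes called for generation 22 minus 21 was 3 with limma voom, 3 with a mean CPM of at least 1 (4 genes tested), 2 with the 5 marker scores and 2 in male libraries alone. Between generations 21 and 23 it was 2 with a mean CPM of at least 1, 3 with the marker scores and 3 in female libraries alone. Between generations 22 and 23 it was 1 with a mean CPM of at least 1, 0 with the marker scores by edgeR (0 also at an unadjusted p under 0.05), 2 in female and 1 in male libraries alone. The count of correlated pairs was 8 in generation 23 alone and 4 with the marker scores removed. Shares over all genes were not counted for these alternatives. Fewer genes were tested at a mean CPM of at least 1 and fewer libraries entered the single-sex and single-generation values; otherwise the cause was not tested.

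Sign changes of the female minus male log2 difference came in generation 22 alone for Chrna2 (-0.085), Chrna3 (-0.33) and Chrna5 (-0.18). In generation 23 alone they came for Chrna7 (0.022), Chrnb2 (-0.0012) and Chrnb3 (-0.14). Without the 29 libraries that stood apart they came for Chrna3 (-0.016) and Chrna7 (0.0066), and with the marker scores for Chrna3 (-0.032). For generation 22 minus 21 they came without those libraries for Chrna4 (0.10) and Chrnb4 (0.081), and for Chrnb3 with the marker scores (-0.046) and in female libraries (-0.24). Between generations 21 and 23 they came with the marker scores for Chrna4 (-0.020) and Chrnb3 (-0.017), and in female libraries for Chrna4 (-0.077). Between generations 22 and 23 they came with the marker scores for Chrna3 (-0.017), Chrna4 (-0.0174) and Chrna5 (-0.0236), in male libraries for Chrna2 (-0.072), in female libraries for Chrna7 (0.0334), and with total count and mitochondrial share as covariates for Chrnb2 (0.0047).

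Among correlations, Chrna7 with Chrnb2 was positive by Spearman's rho (0.12), without the 29 libraries (0.14), in generations 22 (0.38) and 23 (0.073), with the marker scores removed (0.016) and without the 2 farthest libraries (0.11). Chrna4 with Chrna7 was positive in generations 22 (0.028) and 23 (0.13), and Chrna2 with Chrnb2 without the 29 libraries (0.015). Chrna7 with the thalamic score was 0.097 and 0.079, and with the spiny projection neuron score -0.090 and -0.0090, in generations 22 and 23. Chrnb2 with the spiny projection neuron score was 0.0080 by Spearman's rho and 0.049 without the 29 libraries. Depth limits Chrna6 and Chrnb3 most, with 38.7% and 13.9% of libraries at a count of 0.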

Other observations

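The 20 tested protein-coding genes nearest each subunit gene on its chromosome, 10 to a side, were compared with it over the 416 libraries; this comparison and its genes were chosen after the data were seen, and the values are descriptions with no p. Ephx2, which lies 10538 bases from Chrna2 and encodes an epoxide hydrolase, had an r of 0.49 with Chrna2, and 0.47 with the 5 marker scores removed, where it ranked 1 of 16054 genes by absolute r. Its rho was 0.29, and r was 0.29 without the 29 libraries that stood apart.

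Near Chrnb4, the nearest gene on the side away from Chrna3, Ube2q2, had an r of -0.32, and the next, Fbxo22, of -0.33. Tspan3, 9 genes away, had an r of 0.30. With the marker scores removed these values were -0.31, -0.33 and 0.33. For Chrna5, 0 of 20 neighbours exceeded the 99th percentile of absolute r over all genes, and 7 of 20 did once the marker scores were removed. The 7 were Pstpip1 (0.31), Scaper (-0.30), Chrna3 (0.25), Nrg4 (-0.24), Hykk (-0.21), Psma4 (0.18) and Ube2q2 (-0.17). For Chrna4 the neighbour Stmn3, a stathmin family gene, had an r of 0.77, and 0.42 with the marker scores removed. Snrpn, an imprinted gene 5 genes from Chrna7, had an r of 0.20 with it, and 0.37 with the marker scores removed.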
